A study of Homo sapiens with 4 samples.

Results

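The genes of glucose uptake, glycolysis, the pyruvate dehydrogenase switch and lactate export were followed in HCT116, a human cell line established from a colorectal carcinoma. A list of 42 genes was matched by symbol to the 20263 genes of the deposited tables, and every listed gene with 10 or more counts in at least 2 libraries was kept. All 42 passed, with a lowest count of 26 in any library, and all 42 were among the 14062 genes tested.

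HJ-23 cells received 30 µM HJ-23, which the submitters call a piperine derivative without giving its structure. DMSO cells received the solvent alone, at 0.1%. Both were harvested after 24 h and are labelled wild type, so the comparison covers 1 line, 1 dose and 1 time. Each group has 2 libraries of total RNA, and nothing in the labels says that they came from separate cultures. Every p-value below sets the difference between groups against a spread estimated from these libraries alone, and that spread may be only technical. For the treated samples the titles and the design say HJ-23 but the treatment entry says HJ-25; groups and directions here follow the titles.

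Glycolysis splits glucose into pyruvate in the cytosol and yields ATP and NADH. Lactate dehydrogenase turns pyruvate into lactate and returns NAD+, and monocarboxylate transporters carry lactate out of the cell; the alternative fate is entry into mitochondria and oxidation by pyruvate dehydrogenase, which PDK kinases switch off and PDP phosphatases switch on. Most steps have several isozymes, and tumour cells commonly run a high flux to lactate even with oxygen present. Many genes of the pathway are textbook targets of the hypoxia-inducible factors, which bind the letters ACGTG in DNA.

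The libraries held 34406649 and 34831207 counts in HJ-23 cells and 31120459 and 29769568 counts in DMSO cells. Levels are in CPM (the count per 1e6 counts of the library, its size scaled with the TMM method). Of 8 colorectal epithelial markers, 6 were tested and 0 had an unadjusted edgeR p below 0.05. EPCAM was at 272 and 266 CPM in HJ-23 cells, against 271 and 254 CPM in DMSO cells. KRT18 was at 564 and 764 CPM in HJ-23 cells, above 503 and 483 CPM in DMSO cells (edgeR unadjusted p = 0.0540). KRT8 had 1778 and 2489 CPM in HJ-23 cells and 1923 and 1751 CPM in DMSO cells, and KRT19 had 1334 and 1906 CPM in HJ-23 cells and 1727 and 1517 CPM in DMSO cells, so these keratins differed more between the HJ-23 libraries than between the DMSO libraries. The intestinal factor CDX2 averaged 15.4 ± 0.527 CPM in HJ-23 cells and 13.8 ± 0.681 CPM in DMSO cells (SD, n = 2 each), while VIL1 was at no more than 0.129 CPM and CDX1 was listed at 0. The 4 leukocyte markers summed to 0.480 and 0.552 CPM in HJ-23 cells and to 0.483 and 0.171 CPM in DMSO cells, with PTPRC and CD3E listed at 0. Of 5 fibroblast markers, COL1A1 alone was above 1 CPM, at 55.1 and 60.0 CPM in HJ-23 cells and 63.3 and 61.1 CPM in DMSO cells, with COL1A2, DCN and LUM listed at 0. TXNIP, a widely expressed gene among the listed regulators, was also listed at 0 in all 4 libraries, and whether an exact 0 stands for the cells or for the table was not tested.

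Summed, the 42 genes made up 2.44% and 2.65% of the TMM-scaled library size in HJ-23 cells, against 3.60% and 3.31% in DMSO cells. GAPDH alone made up 40.0% and 40.1% of that sum in HJ-23 cells and 43.2% and 41.3% in DMSO cells. Without it the sum was 14630 and 15850 CPM in HJ-23 cells, against 20460 and 19440 CPM in DMSO cells, so the groups did not overlap with or without the most abundant gene. In bulk RNA, fewer cells with a transcript and less of it per cell cannot be told apart.

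None of the 42 genes passed an adjusted p of 0.05 in edgeR's quasi-likelihood test, in either direction, where 0.0569% of all genes tested were called higher and 0.0284% lower. At an unadjusted p below 0.05 in the same test, 16 of the 42 (38.1%) were lower in HJ-23 cells and 1 was higher, beside 5.25% and 6.77% of all genes tested. DESeq2 called 9 of the 42 lower (21.4%) and 0 higher at an adjusted p below 0.05, beside 1.11% and 1.19% of all genes; at an unadjusted p below 0.05 it gave 16 lower and 1 higher, beside 4.74% and 4.76% of all genes. These 9 were SLC2A3, HK2, ALDOC, PGK1, ENO1, ENO2, LDHA, PDK1 and PDK3. Both HJ-23 libraries lay below both DMSO libraries for 20 of the 42 genes (47.6%), where 21.2% of all genes did so, and above them for 5 genes (11.9%), where 24.8% of all genes did so.

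The log2 fold change, HJ-23 over DMSO, was negative for 30 of the 42 genes (71.4%) and positive for 12 (28.6%), against 49.0% and 51.0% of all genes. Its median over the 42 was -0.12, with quartiles of -0.53 and 0.0055, beside a median of 0.0086 and quartiles of -0.21 and 0.23 over all genes tested. Of the 42 values, 21 lay within 0.2 of 0 and 14 lay below -0.5. The 16 lower genes stood at 51.6% to 75.7% of their DMSO level, with adjusted p from 0.124 to 0.362 in edgeR.

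**Figure D1:**
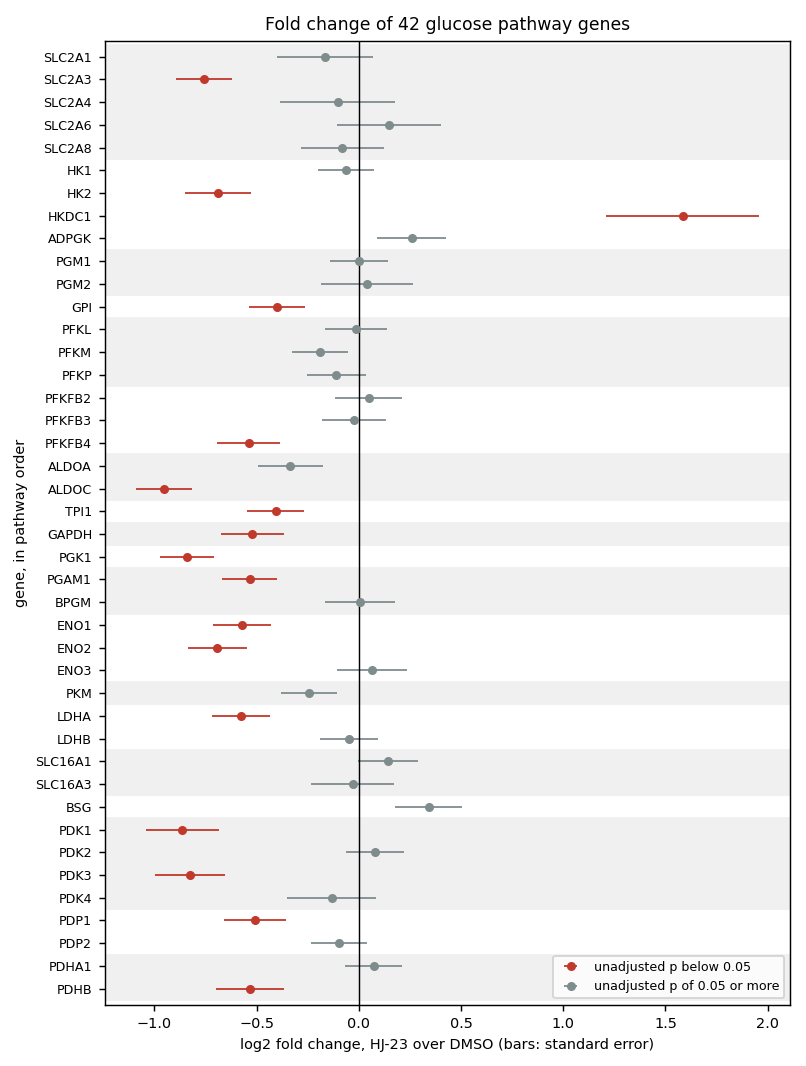
Log2 fold change of each of the 42 genes, HJ-23 over DMSO, from transport at the top to pyruvate dehydrogenase at the bottom; bars are the standard error from edgeR and red marks an unadjusted p below 0.05. The 16 lower genes in red run from ALDOC at -0.95 to GPI at -0.40, and HKDC1 at 1.58 is the only red gene on the right.

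The listed transporters with the most RNA were SLC2A1 (GLUT1) and SLC2A3 (GLUT3), the basal and the high-affinity glucose transporter. SLC2A3 (ENSG00000059804) was at 221 and 193 CPM in HJ-23 cells, against 347 and 354 CPM in DMSO cells, a log2 fold change of -0.76 ± 0.14 (SE, n = 2 each; edgeR adjusted p = 0.206, DESeq2 adjusted p = 0.00178). Both HJ-23 libraries were well below both DMSO libraries. Reads of SLC2A3 may be shared with its near copy SLC2A14, which was at 0.733 and 1.45 CPM in HJ-23 cells and 1.45 and 1.98 CPM in DMSO cells.

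SLC2A1 had 112 and 174 CPM in HJ-23 cells and 147 and 175 CPM in DMSO cells, so its groups overlapped, and the HJ-23 libraries differed from each other more than the groups did. The remaining transporters of the 42 genes were SLC2A4 (the insulin-responsive GLUT4), SLC2A6 and SLC2A8. They had mean levels of 2.89, 13.5 and 11.6 CPM in HJ-23 cells and of 3.10, 12.2 and 12.3 CPM in DMSO cells, with overlapping groups. Outside the 42, SLC2A11, SLC2A12 and SLC2A13 averaged 12.15, 21.62 and 25.56 CPM in HJ-23 cells. In DMSO cells they averaged 11.44, 23.56 and 30.4 CPM. Scaled by transcript length, SLC2A3 made up 58.4% and 44.8% of the 5 transporters among the 42 genes in HJ-23 cells. In DMSO cells it made up 63.0% and 60.8%.

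Phosphorylation by hexokinases traps glucose in the cell; whether the isozymes differ from each other in response was not tested at this or any other step. HK2 (ENSG00000159399), the inducible hexokinase of many tumours, was at 130 and 151 CPM in HJ-23 cells, against 247 and 206 CPM in DMSO cells, a log2 fold change of -0.69 ± 0.16 (SE; edgeR adjusted p = 0.255, DESeq2 adjusted p = 0.0285). HK1, the constitutive hexokinase, was at 214 and 241 CPM in HJ-23 cells and at 236 and 241 CPM in DMSO cells, with overlapping groups. HK1 had the largest share of the step in every library with the length of 1 transcript, but in DMSO replicate 1 HK2 was ahead without length scaling (48.4% against 46.2% for HK1) and with the length of all exons merged (49.1% against 45.2%). HK2's share was 24.0% and 24.7% in HJ-23 cells, against 36.0% and 32.1% in DMSO cells.

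HKDC1 (ENSG00000156510), a hexokinase-related protein, was higher at a very low level, with 116 and 153 counts in HJ-23 cells and 52 and 26 counts in DMSO cells. That was 3.27 and 4.45 CPM against 1.67 and 0.889 CPM, a log2 fold change of 1.58 ± 0.37 (SE; edgeR adjusted p = 0.260, DESeq2 adjusted p = 0.0770). Per length it held no more than 1.14% of the step in any library. ADPGK, which uses ADP in place of ATP, was at 27.9 and 29.1 CPM in HJ-23 cells, above 25.7 and 21.9 CPM in DMSO cells, but its unadjusted p in edgeR was 0.179.

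GPI, which turns glucose 6-phosphate into fructose 6-phosphate, was at 813 and 764 CPM in HJ-23 cells, against 1090 and 993 CPM in DMSO cells (log2 fold change -0.40 ± 0.14 SE; edgeR adjusted p = 0.362). PGM1, the main phosphoglucomutase per length and a link from glycogen to the pathway, was at 90.9 and 103.7 CPM in HJ-23 cells and 97.4 and 96.8 CPM in DMSO cells. PGM1 and PGM2 had log2 fold changes of 0.0022 and 0.039 with overlapping groups.

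At the committed step, none of the 3 phosphofructokinase genes had an unadjusted edgeR p below 0.05. PFKP, the platelet-type phosphofructokinase and the most abundant of its step per length, was at 413 and 480 CPM in HJ-23 cells and 499 and 465 CPM in DMSO cells. PFKL and PFKM had log2 fold changes of -0.015 and -0.19, and PFKM alone of the 3 had groups that did not overlap, at 137 and 155 CPM in HJ-23 cells against 168 and 165 CPM in DMSO cells (edgeR unadjusted p = 0.219).

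The PFKFB enzymes make and break fructose 2,6-bisphosphate, the main activator of phosphofructokinase. PFKFB4 was at 64.8 and 74.7 CPM in HJ-23 cells, against 107.9 and 94.8 CPM in DMSO cells (log2 fold change -0.54 ± 0.15 SE; edgeR adjusted p = 0.310, DESeq2 adjusted p = 0.138). Its share of the 3 enzymes per length was 60.0% and 62.0% in HJ-23 cells, against 71.2% and 67.7% in DMSO cells. PFKFB2 and PFKFB3 had log2 fold changes of 0.048 and -0.021.

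The stretch from aldolase to pyruvate kinase held 7 of the 16 lower genes. Of its 11 genes, 9 were negative, 9 had groups that did not overlap with HJ-23 below DMSO, and the median log2 fold change was -0.52. Over all genes tested, 49.0% were negative and 21.2% had such groups. At an unadjusted edgeR p below 0.05, 5.25% of all genes tested were lower. Summed over the 11 genes the level was 18140 and 19750 CPM in HJ-23 cells, against 28360 and 25610 CPM in DMSO cells.

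ALDOC (ENSG00000109107), an aldolase best known from brain, had the smallest p of the 42 genes. It was at 234 and 245 CPM in HJ-23 cells, against 489 and 437 CPM in DMSO cells, a log2 fold change of -0.95 ± 0.14 (SE; edgeR unadjusted p = 4.39e-04 and adjusted p = 0.124, DESeq2 adjusted p = 1.5e-05). ALDOA, the main aldolase per length, was at 999 and 1127 CPM in HJ-23 cells, against 1466 and 1215 CPM in DMSO cells (edgeR adjusted p = 0.458). ALDOC's share of the pair was 15.9% and 14.9% in HJ-23 cells, against 21.3% and 22.5% in DMSO cells.

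PGK1 (ENSG00000102144), which makes the first ATP of the payoff phase, was at 775 and 812 CPM in HJ-23 cells, against 1462 and 1378 CPM in DMSO cells (log2 fold change -0.84 ± 0.13 SE; edgeR adjusted p = 0.156, DESeq2 adjusted p = 8.5e-05). GAPDH, often used as a loading control, was at 9752 and 10620 CPM in HJ-23 cells, against 15560 and 13670 CPM in DMSO cells, which is 69.7% of the DMSO level (edgeR adjusted p = 0.325, DESeq2 adjusted p = 0.0922). In each of these genes the HJ-23 libraries were close together and below both DMSO libraries.

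TPI1, which interconverts the triose phosphates, was at 769 and 860 CPM in HJ-23 cells, against 1106 and 1055 CPM in DMSO cells (edgeR adjusted p = 0.362). PGAM1, the phosphoglycerate mutase, was at 391 and 426 CPM in HJ-23 cells, against 603 and 581 CPM in DMSO cells (edgeR adjusted p = 0.278, DESeq2 adjusted p = 0.0546). Reads of PGAM1 may be shared with its near copy PGAM4, at 3.64 to 4.86 CPM. BPGM, which makes 2,3-bisphosphoglycerate, had a log2 fold change of 0.0066.

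Enolase makes phosphoenolpyruvate. ENO1 (ENSG00000074800), which supplied 94.7% to 95.2% of the step per length, was at 2979 and 3327 CPM in HJ-23 cells, against 4766 and 4611 CPM in DMSO cells (log2 fold change -0.57 ± 0.14 SE; edgeR adjusted p = 0.278, DESeq2 adjusted p = 0.0340). ENO2 (ENSG00000111674), the neuronal form, was at 162 and 183 CPM in HJ-23 cells, against 295 and 261 CPM in DMSO cells (log2 fold change -0.69 ± 0.15 SE; edgeR adjusted p = 0.233, DESeq2 adjusted p = 0.0132). ENO3, the muscle form, had 13.5 and 12.9 CPM in HJ-23 cells and 13.1 and 12.2 CPM in DMSO cells. PKM, the pyruvate kinase gene of the list, was at 2054 and 2127 CPM in HJ-23 cells, against 2584 and 2374 CPM in DMSO cells. Its unadjusted p in edgeR was 0.123.

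**Figure D2:**
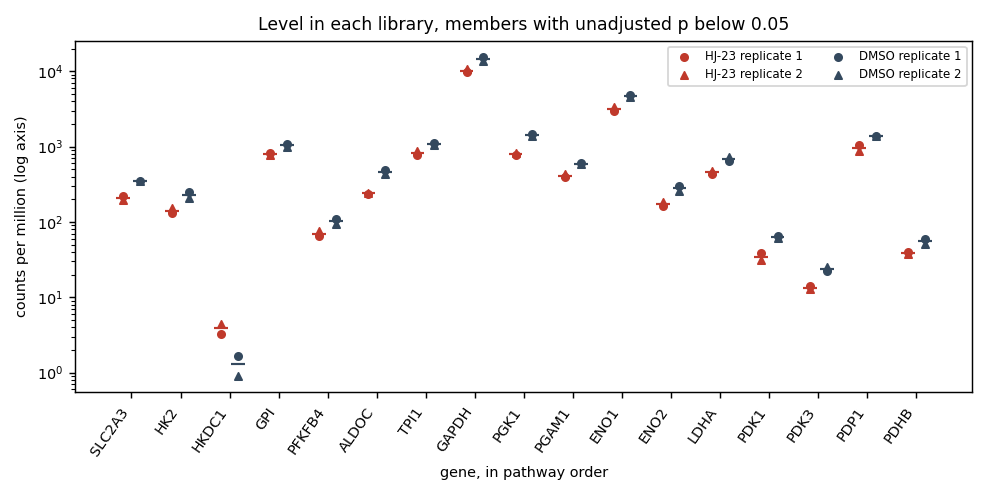
Level of the 17 genes with an unadjusted edgeR p below 0.05 in each library, in CPM on a log axis; circles are replicate 1, triangles replicate 2 and short lines the group means. For each of the 17 the HJ-23 libraries and the DMSO libraries do not overlap, with HKDC1 alone higher in HJ-23 cells. Picking genes by p in these same libraries favours such gaps. Over all genes tested, both HJ-23 libraries were below both DMSO libraries for 21.2% and above them for 24.8%.

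Of the 5 lactate genes, LDHA alone had an unadjusted edgeR p below 0.05. LDHA (ENSG00000134333), the subunit that favours lactate production, was at 431 and 479 CPM in HJ-23 cells, against 642 and 715 CPM in DMSO cells (log2 fold change -0.58 ± 0.14 SE; edgeR adjusted p = 0.275, DESeq2 adjusted p = 0.0423). LDHB, the subunit that favours pyruvate, was at 657 and 765 CPM in HJ-23 cells and 734 and 734 CPM in DMSO cells, with overlapping groups. LDHA's share of the pair per length was 29.4% and 28.5% in HJ-23 cells, against 35.8% and 38.3% in DMSO cells.

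None of the export genes had such a p. SLC16A3 (MCT4), the lactate exporter of glycolytic cells, was at 286 and 417 CPM in HJ-23 cells and 371 and 346 CPM in DMSO cells, and SLC16A1 (MCT1) had a log2 fold change of 0.14 with overlapping groups. BSG (basigin), the chaperone that brings both to the membrane, was at 822 and 1035 CPM in HJ-23 cells, above 760 and 705 CPM in DMSO cells (edgeR unadjusted p = 0.0807, adjusted p = 0.458).

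At the pyruvate dehydrogenase switch, 2 kinases, a phosphatase and a subunit of the enzyme were among the 16 lower genes. PDK1 (ENSG00000152256), a kinase that holds the enzyme off, was at 38.6 and 30.8 CPM in HJ-23 cells, against 64.7 and 61.5 CPM in DMSO cells (log2 fold change -0.86 ± 0.18 SE; edgeR adjusted p = 0.233, DESeq2 adjusted p = 0.00395). PDK3 (ENSG00000067992), another of these kinases, was at 13.9 and 12.7 CPM in HJ-23 cells, against 22.3 and 25.0 CPM in DMSO cells (log2 fold change -0.83 ± 0.17 SE; edgeR adjusted p = 0.233, DESeq2 adjusted p = 0.0153). PDK2, the most abundant kinase per length, was at 60.5 and 65.3 CPM in HJ-23 cells and 59.7 and 59.3 CPM in DMSO cells, and PDK4, the kinase induced by fasting in muscle and liver, had a log2 fold change of -0.13.

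PDK2 made up 57.1% and 62.8% of the 4 kinases per length in HJ-23 cells, against 47.7% and 45.5% in DMSO cells. Without length scaling PDK1 was ahead of PDK2 in DMSO cells, at 41.2% and 39.0% against 38.1% and 37.6%, and PDK2 was ahead in HJ-23 cells. The difference in share, HJ-23 minus DMSO, was -3.97 points for PDK1 and -10.3 points for PDK3 per length, and -11.5 and -4.00 points without length scaling. PDP1, the phosphatase that opposes the kinases, was at 1060 and 867 CPM in HJ-23 cells, against 1375 and 1364 CPM in DMSO cells (log2 fold change -0.51 ± 0.15 SE; edgeR adjusted p = 0.328). PDHB, the beta subunit of the first enzyme of the complex, was at 39.5 and 37.2 CPM in HJ-23 cells, against 60.0 and 50.9 CPM in DMSO cells (edgeR adjusted p = 0.333). Its partner PDHA1 had 70.3 and 72.6 CPM in HJ-23 cells and 65.8 and 70.2 CPM in DMSO cells, and PDP2 had a log2 fold change of -0.096.

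**Figure D3:**
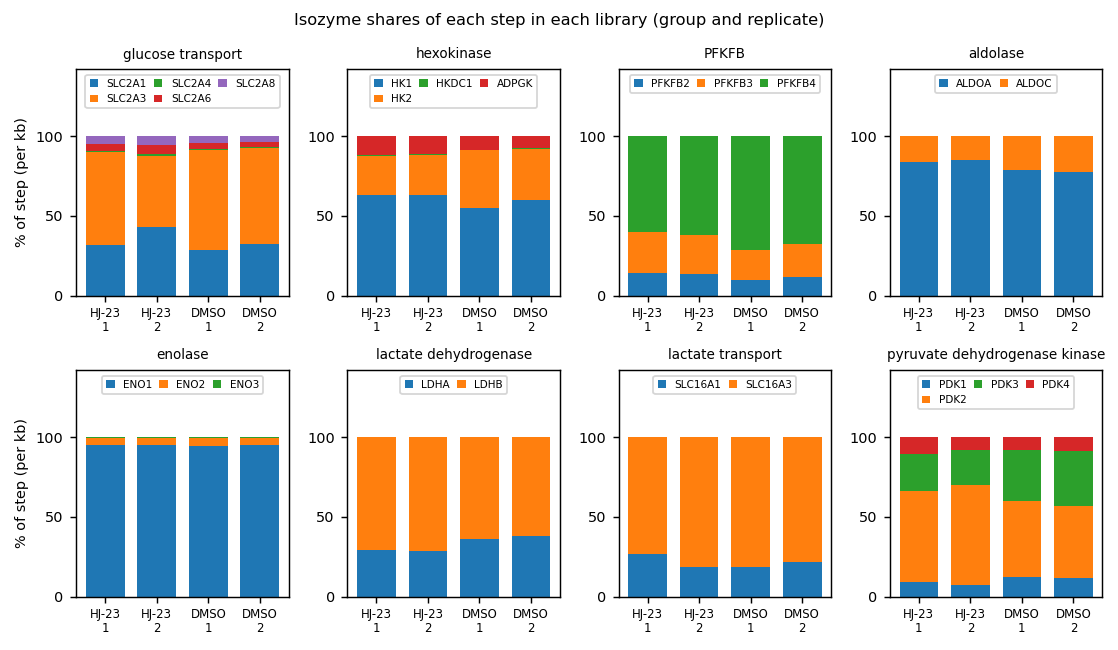
Share of each isozyme in the length-scaled level of its step, in percent, for each library; every bar adds to 100%. HK2, PFKFB4, ALDOC, LDHA, PDK1 and PDK3 take smaller shares in both HJ-23 libraries than in both DMSO libraries, and PDK2 takes larger ones.

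Promoter letters are shown for 7 of the 9 genes that DESeq2 called lower, because these hold the core ACGTG, and for LDHB as the isozyme of LDHA without it. Sequences are from RefSeq on GRCh38.p14, read 5′ to 3′ on the gene's own strand from the 250 bases before the RefSeq start, with ACGTG or its reverse complement CACGT in capitals. PGK1 (chrX:78103998-78104173, plus strand), LDHA (chr11:18394313-18394387, plus strand) and LDHB (chr12:21657972-21658092, minus strand) are given up to the first base that GENCODE 29 places in an exon; the others are the first match with up to 12 bases on each side, at chr2:74833886-74833914 (HK2, plus), chr17:28577118-28577145 (ALDOC, minus), chr12:6914450-6914478 (ENO2, plus), chr2:172556061-172556089 (PDK1, plus) and chrX:24465213-24465241 (PDK3, plus).
PGK1: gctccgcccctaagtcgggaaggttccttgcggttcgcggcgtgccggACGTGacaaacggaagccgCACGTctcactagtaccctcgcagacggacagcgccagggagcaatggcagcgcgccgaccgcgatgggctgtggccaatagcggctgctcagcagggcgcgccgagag
LDHA: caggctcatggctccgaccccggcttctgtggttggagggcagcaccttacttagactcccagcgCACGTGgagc
LDHB: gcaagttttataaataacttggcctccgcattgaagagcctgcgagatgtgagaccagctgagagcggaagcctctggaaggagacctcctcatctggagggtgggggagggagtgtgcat
HK2: agccacggaccaCACGTcccatctcaggc
ALDOC: aagtgcccggCACGTGgtaaagggattg
ENO2: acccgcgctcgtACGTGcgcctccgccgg
PDK1: cctgctgcccgcCACGTccctCACGTacc
PDK3: cgcgcgccgcgtACGTGcagcaaccgact

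Of the 37 genes with a RefSeq window, 17 (45.9%) held ACGTG on either strand, where 18.5% of all 35116 windows and 21.8% of the 16269 windows of tested genes did. The core was in 10 of 14 windows (71.4%) of the genes that were lower at an unadjusted edgeR p below 0.05 and in 7 of 22 windows (31.8%) of the genes with a p of 0.05 or more. PGK1 held it 202 and 183 bases before the start, and LDHA held it at 3 places, of which the farthest, 185 bases before, is printed. Of the 8 genes with a window that DESeq2 called lower, 7 held it (87.5%). ENO1, TPI1, PGAM1 and PFKFB4 were lower without a match in their window. PGM2, PFKFB3, ALDOA, BPGM, BSG, PDK2 and PDP2 held a match with an unadjusted edgeR p of 0.05 or more. Each window was taken at the RefSeq start nearest to the GENCODE start of the transcript used for length. These starts were 1337 bases apart for GAPDH, 1658 for PGAM1, 3417 for PFKM and 1212 for SLC16A3. Windows of these genes may therefore miss the promoter in use, which was not tested. CACGTG, which contains the core on both strands and is also the E-box read by MYC and other factors, was in 10 of the 37 windows (27.0%), where 6.34% of all windows and 8.07% of those of tested genes held it. It was in 4 of the 14 windows of lower genes (28.6%), those of ALDOC, GAPDH, LDHA and PDHB, and in 6 of the 22 with a p of 0.05 or more (27.3%), those of PGM2, PFKFB3, ALDOA, BSG, PDK2 and PDP2. A match describes letters and says nothing of binding; SLC2A3, SLC2A4, PFKFB2, SLC16A1 and PDP1 had no window.

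Fold changes in these libraries moved with base composition. Over all genes tested, the log2 fold change had a Spearman correlation of 0.38 with transcript GC content, a description over genes that share the same 4 libraries; over the 42 genes it was 0.18. The 42 had a median GC content of 53.5%, against 50.3% for all genes tested. In SLC2A6, SLC16A3 and BSG, with GC contents of 63.7%, 62.6% and 62.7%, HJ-23 replicate 2 stood above HJ-23 replicate 1.

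With each library's trend on GC content and length taken out, the correlation over all genes was -0.016, the median over the 42 genes was -0.27, and 32 of the 42 were negative. ALDOC then passed in edgeR (log2 fold change -1.09, adjusted p = 0.0394) and was the only 1 of the 42 to do so, where 0.0924% of all genes were called lower and 0.156% higher. At an unadjusted p below 0.05, 20 of the 42 were lower and 2 higher, beside 8.28% and 9.12% of all genes. Some GC-rich genes moved further from 0, as ENO1 at -0.74 and GAPDH at -0.69. PDK1, which is GC-poor and at 14193 bases has the longest transcript of the 42, moved toward 0, to -0.46. PDK4 is as GC-poor with 3576 bases and went from -0.13 to -0.037. Whether GC content or length moved PDK1 was not tested. The GC-rich BSG also moved toward 0, to 0.12.

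**Figure D4:**
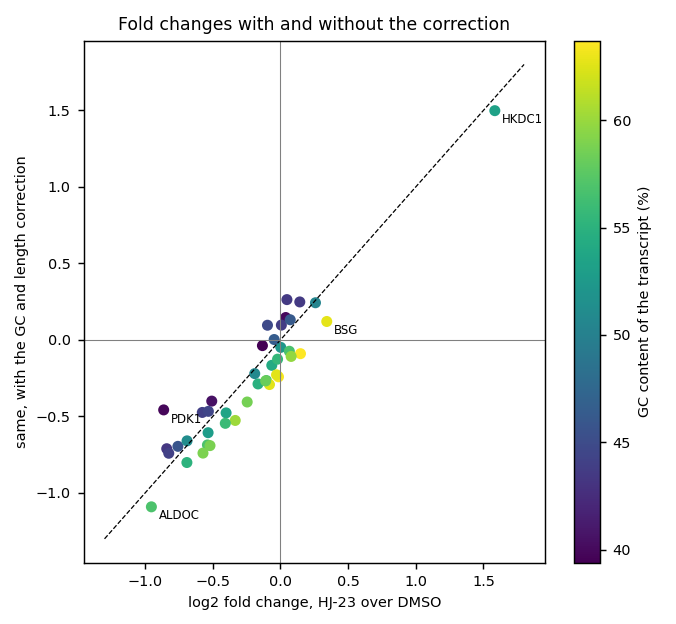
Log2 fold change of the 42 genes, HJ-23 over DMSO, without (horizontal) and with (vertical) the GC and length correction; colour is transcript GC content in percent and the dashed line marks equal values. For 26 of the 42 genes the corrected value is the lower, with GC-rich genes below the line and GC-poor genes above it. PDK1, far above the line, is GC-poor and also has the longest transcript of the 42.

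Neighbouring pathways came from other lists. Of 8 pentose phosphate genes, 6 were positive and the median log2 fold change was 0.36; 5 had both HJ-23 libraries above both DMSO libraries, and none passed in edgeR or DESeq2 after adjustment. TKT (transketolase) was at 976 and 1161 CPM in HJ-23 cells, against 857 and 743 CPM in DMSO cells (edgeR unadjusted p = 0.0391, adjusted p = 0.394).

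Around glycogen, GBE1, the branching enzyme, was at 45.7 and 37.1 CPM in HJ-23 cells, against 73.5 and 74.4 CPM in DMSO cells (edgeR adjusted p = 0.227, DESeq2 adjusted p = 0.00336). PYGB, a glycogen phosphorylase, was at 316 and 433 CPM in HJ-23 cells, against 218 and 200 CPM in DMSO cells (edgeR adjusted p = 0.241, DESeq2 adjusted p = 0.0134). PCK2, the mitochondrial enzyme that makes phosphoenolpyruvate from oxaloacetate, was at 67.0 and 99.6 CPM in HJ-23 cells, against 41.7 and 33.0 CPM in DMSO cells (edgeR adjusted p = 0.233, DESeq2 adjusted p = 0.00234). Of 5 genes for pyruvate entry and oxidation, none had an unadjusted edgeR p below 0.05.

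Of 12 listed regulators, 10 were tested, and EGLN1 (PHD2), the oxygen-sensing hydroxylase that marks HIF for destruction and is itself a HIF target, was the only 1 with an unadjusted edgeR p below 0.05. It was at 79.6 and 67.3 CPM in HJ-23 cells, against 117.6 and 107.6 CPM in DMSO cells (edgeR adjusted p = 0.278, DESeq2 adjusted p = 0.0540). HIF1A was at 159 and 86.9 CPM in HJ-23 cells and 114 and 181 CPM in DMSO cells, and MYC was at 12.7 and 5.99 CPM in HJ-23 cells and 17.7 and 13.7 CPM in DMSO cells. The HIF1A groups overlapped, and its replicates differed more within a group than between groups.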

How the data were processed

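For each of the 4 RNA-seq libraries the authors deposited a table of raw counts per gene, whole numbers that the values show to be unscaled. The submitters' processing notes list, with no roles, RSEM, HISAT2, Trimmomatic, bedtools and FastQC, also without versions; genome build and strand setting: not given in the sources used here. Of values from 1 to 8, 69.6% to 72.3% per library were even, against 49.7% to 50.8% above 50, a pattern that counting both mates of a pair would give. Tables of samples titled HJ-23 carry the letter C and those of samples titled DMSO the letter D. Chi-square divided by degrees of freedom was 73.7 between the HJ-23 libraries and 37.9 between the DMSO libraries, so neither pair is a repeated deposit. Set against each DMSO library in turn, HJ-23 replicate 1 gave 59.8 and 69.6, both below the value within the HJ-23 pair, and HJ-23 replicate 2 gave 92.0 and 145.2.

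Counts were fitted with edgeR 4.0.16 in R 4.3.3 (TMM factors 0.983 to 1.03, filterByExpr, robust legacy quasi-likelihood test, 2 residual and 3.98 prior degrees of freedom) over 14062 genes, with Benjamini-Hochberg adjustment over all of them and a threshold of 0.05. Standard errors were derived from the log2 fold change and its F statistic. With 2 libraries against 2, an exact two-sided permutation test cannot go below 0.333, so shares and levels were given no such test. Alternatives were DESeq2 1.42.0, RLE size factors, other filters, a GC and length correction, a replicate block and leaving out each library. Transcript length and GC content came from GENCODE 29; isozyme shares were also computed without length and, chosen after seeing the data, with merged exon length. The script was tested on simulated data.

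The members and lists were chosen with earlier results of these data known. Values per library are given for members with an unadjusted edgeR p below 0.05 and for the most abundant isozyme of each step per length; some others are also given, chosen after their values were seen.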

Additional observations from a re-analysis of the deposited data

How the results depend on the processing

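All 17 genes with an unadjusted p below 0.05 kept their direction in each of 13 alternatives, as did 25 of the 42 genes in all. The 17 were picked by p in these same libraries and had groups that did not overlap, so a kept direction adds no support. The cause of the changes below was not tested. Of the 42, 0 were called higher and 0 lower in edgeR, against 9 lower with DESeq2 (311 of all genes, against 12) and 1 lower with the GC and length correction (35 of all genes, median -0.267); without a filter 31 of all genes were called. Leaving out 1 library gave 0 to 1 higher (HKDC1 without DMSO replicate 1), 0 to 1 lower (ALDOC without DMSO replicate 2), 0 to 273 of all genes in edgeR (0 when HJ-23 replicate 1 was left out, with 3501 at an unadjusted p below 0.05, and 0 when HJ-23 replicate 2 was, with 1377; the lone library left is assumed to vary like the other group) and a median from -0.302 (without HJ-23 replicate 2) to -0.116. Deviations of same-numbered libraries from their group means had a correlation of -0.18. With 2 libraries per group both pairs must give the same value, so it cannot decide whether such libraries shared a culture or batch. The replicate block gave 1 higher, 1 lower and 294 of all genes. The block with the GC and length correction gave 0 of all genes in edgeR, 1561 at an unadjusted p below 0.05, and a median of -0.274. The block with the numbers crossed, chosen after seeing the data, gave 1 higher, 14 lower and 966 of all genes.

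Sign changes were in genes within 0.2 of 0. PGM1 went to -0.0126 with RLE size factors, -0.0117 with DESeq2, -0.000897 with the replicate block, -0.000832 with the crossed block, -0.0489 with the GC correction and -0.0501 with both block and correction. BPGM went to -0.00816 with RLE and -0.00718 with DESeq2. With the GC correction, and with the block added, SLC2A6 was at -0.090 and -0.103, ENO3 at -0.0742 and -0.0818, PDK2 at -0.108 and -0.109, and PDP2 at 0.0958 and 0.0953; LDHB was at 0.00241 with the correction alone. Leaving out 1 library, log2 fold changes ran from -0.543 to 0.0981 for SLC2A1, -0.446 to 0.138 for SLC2A4, -0.242 to 0.420 for SLC2A6, -0.242 to 0.0705 for SLC2A8, -0.178 to 0.00105 for HK1, -0.121 to 0.0754 for PGM1, -0.178 to 0.270 for PGM2, -0.193 to 0.105 for PFKL, -0.0329 to 0.109 for PFKFB2, -0.0999 to 0.0115 for PFKFB3, -0.0776 to 0.0446 for BPGM, -0.0088 to 0.118 for ENO3, -0.184 to 0.0395 for LDHB, -0.350 to 0.198 for SLC16A3, -0.00135 to 0.114 for PDK2 and -0.367 to 0.0292 for PDK4.

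Of 26 isozyme shares, the difference between groups moved by more than the spread between libraries for 6 without length scaling and for 5 with merged exon length. PDK1 and PDK3 moved in both, to -6.58 and -6.99 points with merged exon length. Leaving out the smallest isozyme of a step, where that applied, moved 3 shares by that measure and did not move 13.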
